A study of Mus musculus with 137 samples.

Results

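The 34 genes described here encode the core machinery of autophagy. They were chosen by name: the kinase complex that starts an autophagosome (Ulk1, Ulk2, Rb1cc1, Atg13), 8 genes for membrane supply and lipid transfer (Atg2a, Atg2b, Atg9a, Wipi1, Wipi2, Vmp1, Wdr45, Zfyve1), 11 genes for the conjugation of the Atg8 proteins (Atg3, Atg4a to Atg4d, Atg5, Atg7, Atg10, Atg12, Atg16l1, Atg16l2), the 5 Atg8 proteins themselves (Map1lc3a, Map1lc3b, Gabarap, Gabarapl1, Gabarapl2) and 6 genes for tethering and fusion with lysosomes (Stx17, Snap29, Vamp8, Epg5, Tecpr1, Plekhm1). All 34 are among the 34573 gene symbols of the count tables, and all 34 passed the filter on low counts in every cohort, where 13693, 10794 and 11500 genes were tested. RNA was sequenced from mouse bone-marrow-derived macrophages, which are macrophages grown from marrow cells, here from mice aged 7 weeks and cultured for 7 days with 20 ng/ml of the growth factor M-CSF. The cells were taken before (0 h) and 6 h and 24 h after addition of LPS (100 ng/ml), a bacterial cell wall component, and interferon gamma (100 ng/ml). There are 3 cohorts. In KO1 and KO2 the mutant carries Beclin1 flox/flox with LysM-Cre, and its control carries Beclin1 flox/flox without Cre. In KI the mutant is homozygous for Beclin1 F121A, a point mutant of the same protein, and its control is a wild-type littermate. The controls are called WT below. KO1 has 3 cultures per genotype and time, each read from 3 repeat libraries that were summed (54 libraries). They carry the numbers S33 to S35 in WT and S36 to S38 in KO at every time, and as the labels do not say whether a number is a mouse or a plate, they are called cultures here. KO2 has 8 libraries per genotype and time, except 7 for WT at 24 h (47 libraries), and KI has 6 in each (36 libraries).

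Macroautophagy wraps cytoplasm in a double membrane and delivers it to lysosomes. The ULK1 kinase complex starts the process, the class III PI3-kinase complex that contains Beclin 1 (gene Becn1) marks the membrane with PI3P, ATG9A vesicles and ATG2 supply lipid, and the ATG7, ATG3, ATG10 and ATG12-ATG5-ATG16L1 enzymes attach LC3 and GABARAP proteins to the growing membrane. STX17, SNAP29 and VAMP8 then fuse the closed autophagosome with a lysosome. In macrophages the same conjugation enzymes also act in the uptake of particles and in defence against microbes. LysM-Cre is expressed from the lysozyme 2 locus and recombines floxed alleles in myeloid cells. Messenger RNA levels, which are all that was measured here, do not show autophagic flux.

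Becn1 checks the labels. Its level is given in normalised CPM, the count relative to a library total that was scaled by TMM, a factor that aligns libraries on most genes. In KO1 at 0 h Becn1 was at 29.1, 29.9 and 36.9 in WT and at 9.40, 9.95 and 14.3 in KO. In KO2 at 0 h its lowest, median and highest values were 28.3, 34.1 and 36.8 in WT and 1.35, 3.45 and 5.41 in KO, and the genotypes did not overlap at any time in either cohort. KO cells thus carried residual Becn1 RNA, more in KO1 than in KO2, and at 0 h the log2 fold change was -1.51 in KO1 and -3.28 in KO2. In KI Becn1 was at 23.9, 29.1 and 31.02 in F121A and at 27.3, 29.6 and 36.03 in WT at 0 h (lowest, median, highest), and it was not called between the genotypes at any time, with log2 differences of -0.08, 0.05 and -0.04 (smallest edgeR adjusted p 0.804). In KO2 Xist was at 105 to 235 in WT and at most 1.46 in KO, while Ddx3y was at most 0.694 in WT and 6.38 to 25.2 in KO, so a genotype difference in that cohort is also a difference between sexes, and the 2 cannot be told apart. KO1 libraries held 1898574 to 6579185 counts, KO2 libraries 1448218 to 15627379 and KI libraries 3574158 to 11786453. The 34 genes together took 0.057 to 0.269% of a KO1 library, 0.0833 to 0.230% of a KO2 library and 0.0846 to 0.208% of a KI library. All 8 macrophage markers were detected in every group, B cell markers summed to at most 5.96 CPM and T and NK cell markers to at most 2.15. Nothing in the labels says that the libraries of KO2 and KI came from separate cultures or mice, so p-values there measure the spread between these libraries, which may be technical. The labels of 2 libraries conflict on their group, and both were grouped by title.

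Before stimulation Atg8 genes and Vamp8, the lysosomal SNARE, were among the most abundant members per base of transcript. On the scale of normalised CPM per kilobase of exon, Gabarap, an Atg8 protein, had the highest WT median at 0 h in every cohort, with 71.3 in KO1, 177 in KO2 and 108 in KI. Vamp8 was at 28.7, 31.3 and 31.1, while the other fusion genes were far lower, Plekhm1 next at 7.00, 7.22 and 6.26. Gabarapl1 was at 9.98, 44.9 and 24.8. Map1lc3b, which encodes the commonly assayed LC3B, was at 14.5, 26.1 and 24.1 and Gabarapl2 at 21.6, 27.5 and 19.4, and Vmp1 was close to them at 20.4, 20.0 and 16.5. At the other end stood Rb1cc1, the scaffold of the kinase complex, at 0.853, 0.837 and 0.815, Atg4d, an Atg8-processing protease, at 0.693, 0.977 and 0.971, and Atg2b, a lipid transfer protein, at 1.21, 0.496 and 0.525. The tables were normalised separately, so these are orders within a cohort.

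Stimulation for 6 h lowered most of the members that changed in WT cells. In KO1, 23 of the 34 passed an adjusted p of 0.05 in edgeR's quasi-likelihood test, 18 of them lower, against 56.7% of all tested genes that passed, 31.1% lower and 25.7% higher. In KO2 27 passed, 20 lower (70.8% of all genes passed, 38.3% lower and 32.5% higher), and in KI 27 passed, 19 lower (73.5% of all genes, 36.8% lower and 36.7% higher). The median log2 change of the 34 was -0.78 in KO1, -0.87 in KO2 and -0.49 in KI, where the median over all genes was -0.09, -0.11 and 0.00. Counting only genes lower in all 3 cohorts, there were 17 members and 27% of the 10612 genes tested in all 3. The corresponding count of members higher in all 3 was 5, and 21.8% of all genes. In bulk samples fewer cells of a type and less RNA per cell cannot be told apart. The summed level of 6 genes of stimulated macrophages (Nos2, Il6, Il12b, Tnf, Cxcl9, Irf1) went from 30.8 to 144 at 0 h to 11879 to 55191 at 6 h over all libraries and cultures, and that of the dendritic cell markers rose as well, in KO1 from 21.6 to 34.4 at 0 h to 278 to 468 at 6 h. Their part in the members' changes was not tested.

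The direction of several rises depends on the scaling. From 0 h to 6 h the mean TMM factor of WT samples went from 1.60 to 0.783 (KO1), from 1.28 to 0.724 (KO2) and from 1.63 to 0.706 (KI). Expressed on library totals alone, every 6 h change shifts by -1.03, -0.83 and -1.21 on the log2 scale. This is 1 shift for all genes of a cohort, which can only make a fall larger. Of the 5, 7 and 8 members called higher, 3, 5 and 3 stayed above 0. Rises given below are therefore relative to the bulk of genes.

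**Figure D1:**
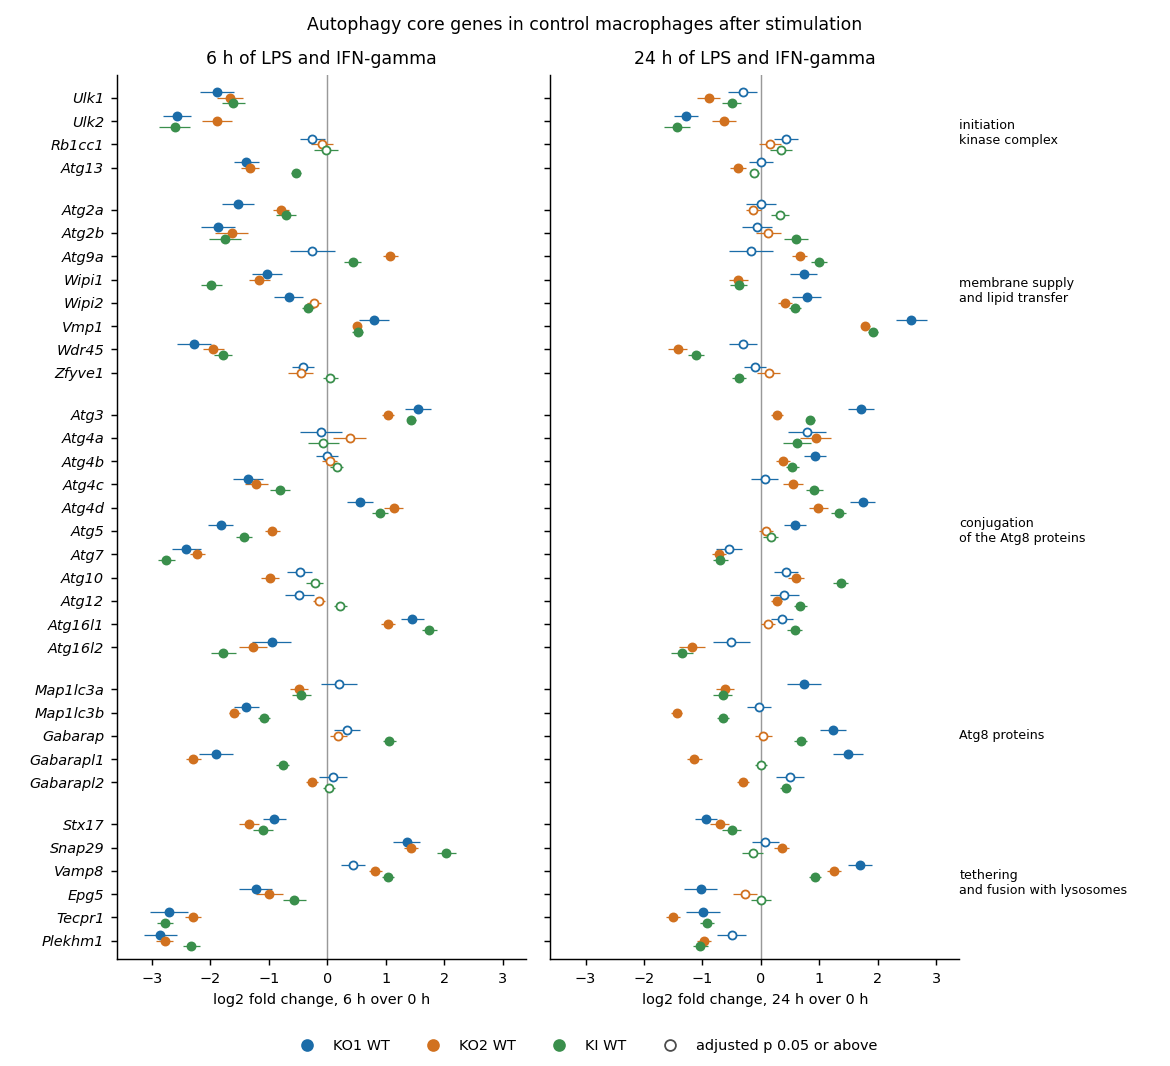
Log2 fold change of each of the 34 genes in WT macrophages at 6 h and 24 h over 0 h, by role, in KO1, KO2 and KI. Bars are standard errors and open points have an adjusted p of 0.05 or more. At 6 h most points lie left of 0, from Plekhm1 at -2.86 in KO1 to Snap29 at 2.04 in KI, and at 24 h most have moved back towards or past 0.

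Of the initiation kinase complex, Ulk1, Ulk2 and Atg13 fell at 6 h in all 3 cohorts, and the scaffold Rb1cc1 did not pass the test in any. In KO1 WT cells Ulk2, a kinase related to Ulk1, was at 13.3, 16.5 and 18.9 normalised CPM at 0 h and at 2.32, 2.75 and 3.09 at 6 h. Its lowest, median and highest WT values in KI were 6.02, 7.90 and 10.3 at 0 h and 0.699, 1.36 and 2.01 at 6 h. Every stimulated WT sample lay below every resting one, in KO2 too. Ulk2 changed by -2.57 ± 0.23 (SE, log2) in KO1, by -1.89 ± 0.25 in KO2 and by -2.61 ± 0.27 in KI, with edgeR adjusted p of at most 2.93e-08. For Ulk1, the kinase that phosphorylates Beclin 1 and other early factors, the changes were -1.89, -1.66 and -1.61 (largest edgeR adjusted p 1.76e-05), and for its regulatory partner Atg13 they were -1.39, -1.33 and -0.54 (largest 2.08e-05). The 3 values of Rb1cc1 were -0.25, -0.09 and -0.02.

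Membrane supply genes split. Atg2a, Atg2b, Wipi1 and Wdr45 fell in every cohort at 6 h, whereas Vmp1 rose. Wdr45 (also called WIPI4), an X-linked PI3P-binding partner of ATG2, was at 7.09, 8.43 and 11.1 normalised CPM in KO1 at 0 h and at 1.66, 1.78 and 2.01 at 6 h. It changed by -2.28 ± 0.29, -1.95 ± 0.18 and -1.78 ± 0.15 on the log2 scale (SE; KO1, KO2, KI; largest edgeR adjusted p 1.99e-06), with no overlap between the times. Exons of another gene, Gm45208, cover 24.7% of Wdr45, and with counting that ignores strand its value is uncertain. Atg2b fell by 1.87, 1.64 and 1.75 on the log2 scale (largest edgeR adjusted p 2.08e-05). Its levels overlapped between 0 h and 6 h in KO2, at 2.67, 6.67 and 8.94 against 0.667, 1.73 and 4.40, and in KI, but not in KO1. Vmp1, a lipid scramblase of the endoplasmic reticulum, went from 71.6, 78.7 and 83.5 to 110, 120 and 177 in KO1, and from 74.3, 77.4 and 87.8 to 99.0, 112 and 120 in KO2 (lowest, median, highest). The rise was 0.80 ± 0.25, 0.51 ± 0.08 and 0.52 ± 0.09 (SE; edgeR adjusted p 0.0114 in KO1, 3.05e-08 in KO2 and 2.92e-06 in KI), smaller than the shift between scalings given above, and in KO1 its adjusted p was 0.124 without the filter on low counts and 0.1002 without the culture S35. Atg9a, the scramblase of the vesicles that seed the membrane, changed by -0.25, 1.08 and 0.43 and passed in KO2 and KI (in KI not without the filter, adjusted p 0.199), and 31.8% of its exon bases are shared with Gm29253.

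The conjugation genes moved in both directions, with falls led by Atg7 and rises led by Atg16l1 and Atg3. Atg7, the E1-like enzyme that activates both ubiquitin-like systems, was at 24.0, 27.2 and 35.4 normalised CPM in KO1 WT cells at 0 h and at 4.63, 5.66 and 5.96 at 6 h. In KI it went from 29.1, 33.2 and 36.1 to 3.86, 4.61 and 7.10 (lowest, median, highest). The times did not overlap in any cohort, and the changes were -2.41 ± 0.25, -2.22 ± 0.14 and -2.75 ± 0.15 (SE; largest edgeR adjusted p 1.85e-07). Atg5, part of the E3-like complex, fell as well, by 1.83, 0.94 and 1.42 on the log2 scale (largest 5.88e-07), as did Atg16l2 and the protease Atg4c. In KO1 the Atg16l2 change of -0.95 had an edgeR adjusted p of 0.0194, which was 0.0901 without S33, 0.160 without S34 and 0.0612 with only the compared groups in the fit. The partner of Atg5, Atg16l1, which places the complex on the membrane, moved the other way: in KO1 from 25.9, 30.8 and 31.9 to 69.2, 84.5 and 89.5, in KO2 from 17.7, 24.6 and 27.8 to 36.9, 50.02 and 57.6, and in KI from 19.9, 20.998 and 22.4 to 59.7, 71.2 and 78.7. None of these ranges overlap, and Atg16l1 rose by 1.46 ± 0.20, 1.04 ± 0.11 and 1.75 ± 0.13 (SE; largest edgeR adjusted p 4.21e-06). Atg3, the E2-like enzyme that hands LC3 to phosphatidylethanolamine, rose by 1.55 ± 0.22, 1.05 ± 0.10 and 1.44 ± 0.08 (largest 1.03e-05), from 19.8, 22.3 and 23.3 to 48.0, 55.4 and 87.7 in KO1. Within 1 enzyme cascade the E1-like gene fell and the E2-like gene rose in the same bulk samples. The remaining rise was that of Atg4d, an Atg8-processing protease, by 0.56 ± 0.23, 1.14 ± 0.16 and 0.91 ± 0.14. In KO1 its edgeR adjusted p was 0.0396, and it was 0.372 without the filter on low counts, 0.215 without S33, 0.173 without S35, 0.0528 without S38 and 0.0513 with the replicate block. Exons of Kri1 cover 19.3% of Atg4d. Atg4a, Atg4b and Atg12 passed in no cohort at 6 h.

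Among the Atg8 proteins, Map1lc3b and Gabarapl1 fell in all 3 cohorts at 6 h and the abundant Gabarap did not. Map1lc3b was at 94.1, 109 and 160 normalised CPM in KO1 at 0 h and at 41.2, 43.6 and 53.97 at 6 h. In KO2 it went from 181, 196 and 273 to 63.0, 67.5 and 82.9, and in KI from 169, 182 and 198 to 69.0, 90.1 and 96.9. All stimulated samples were below all resting ones, with log2 changes of -1.39 ± 0.21, -1.59 ± 0.09 and -1.08 ± 0.11 (SE; largest edgeR adjusted p 2.01e-05). Gabarapl1 changed by -1.91 ± 0.29, -2.29 ± 0.13 and -0.77 ± 0.11 (largest 1.56e-05), and 28.3% of its exon bases are shared with 1700101I11Rik. Gabarap rose in KI, by 1.06 ± 0.11 (edgeR adjusted p 1.23e-11), and its values in KO1 and KO2 were 0.34 and 0.18. After 24 h the Atg8 genes stood differently in the 3 cohorts relative to 0 h. Gabarapl1 was higher in KO1 (1.495 ± 0.26, edgeR adjusted p 1.24e-04), at 63.1, 64.5 and 68.8 against 17.8, 20.1 and 31.6. In KO2 it was lower (-1.14 ± 0.13, edgeR adjusted p 1.09e-11), at 33.7, 42.3 and 47.4 against 72.9, 90.4 and 108, and in KI its change was 0.00 ± 0.11. Map1lc3b stood at -0.03, -1.44 and -0.65 and Map1lc3a at 0.75, -0.61 and -0.65, and these differences between cohorts were not tested.

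**Figure D2:**
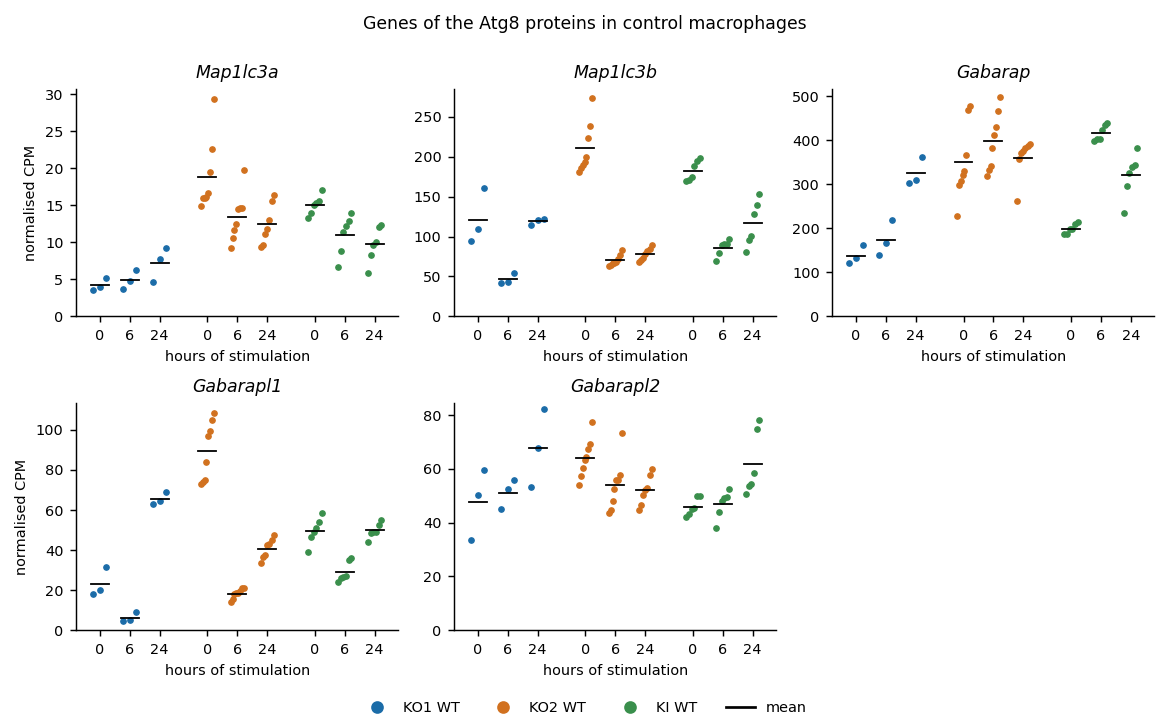
Normalised CPM (linear axis from 0) of the 5 Atg8 genes in WT samples at 0, 6 and 24 h, with 1 panel per gene and a column per cohort and time. Points are cultures in KO1 and libraries in KO2 and KI, and black lines are means. Map1lc3b and Gabarapl1 drop at 6 h in every cohort, and at 24 h Gabarapl1 lies above its 0 h points in KO1 and below them in KO2.

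By the mean change over the 3 cohorts, fusion genes gave the largest fall (Plekhm1, -2.66) and the largest rise (Snap29, 1.61) of all 34 at 6 h. In KO1 alone Atg3 and Atg16l1 rose more than Snap29. Plekhm1, an adaptor that links LC3 to the HOPS tether, was at 40.02, 41.8 and 55.3 normalised CPM in KO1 WT cells at 0 h and at 4.31, 6.46 and 8.03 at 6 h. In KO2 the lowest, median and highest values were 35.6, 43.1 and 52.1 and then 3.07, 6.37 and 8.15. It changed by -2.86 ± 0.28, -2.78 ± 0.14 and -2.33 ± 0.15 (SE; largest edgeR adjusted p 9.25e-08). Tecpr1, a tether on autolysosomes, changed by -2.71 ± 0.33, -2.31 ± 0.14 and -2.78 ± 0.14 (largest 1.13e-06), and neither gene overlapped between the times. The SNAREs did not move together. Snap29 rose from 11.1, 12.6 and 13.5 to 21.2, 32.6 and 41.8 in KO1, from 7.60, 9.98 and 12.8 to 17.9, 28.6 and 34.4 in KO2, and from 5.85, 6.57 and 10.4 to 27.3, 31.2 and 34.1 in KI. Its log2 change was 1.36 ± 0.23, 1.44 ± 0.12 and 2.04 ± 0.16 (largest edgeR adjusted p 6.15e-05), again without overlap. Stx17, the SNARE on the autophagosome, fell by 0.91, 1.34 and 1.11 on the log2 scale (largest edgeR adjusted p 6.37e-04), and so did the tether Epg5, by 1.23, 0.99 and 0.56 (largest 0.0107). Vamp8 rose in KO2 and KI by 0.82 and 1.03, and its KO1 value of 0.44 had an edgeR adjusted p of 0.0681.

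By 24 h most members had climbed from their 6 h level. Between 6 h and 24 h, 26 members passed in KO1 (24 higher), 26 in KO2 (22 higher) and 30 in KI (25 higher), against 54.6, 59.0 and 65.4% of all genes, of which 28.7, 31 and 33.6% were higher and 25.9, 28 and 31.8% lower. The median log2 change of the 34 was 1.22, 0.62 and 0.59, beside 0.00, 0.07 and 0.02 over all genes. Higher in all 3 cohorts were 18 members (19% of all genes), and lower in all 3 were 2 (13.7% of all genes), Atg16l1 and Snap29, which had both risen at 6 h. Snap29 at 24 h was at 12.9, 12.9 and 13.5 in KO1, and Atg16l1 at 34.98, 39.03 and 39.8. Neither of them passed against 0 h in all 3 cohorts. On library totals alone the change between 6 h and 24 h shifts by 0.37 in KO2 and 0.33 in KI, and the 4 and 5 members called lower there stayed below 0.

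Set against 0 h, 15 members passed at 24 h in KO1 (11 higher, 4 lower), 26 in KO2 (12 and 14) and 27 in KI (15 and 12). Of all tested genes 41.9, 59.3 and 63.8% passed, 21.3, 29.6 and 33.9% higher and 20.6, 29.7 and 29.9% lower. Higher in all 3 cohorts were 6 members (Vmp1, Atg4d, Vamp8, Atg3, Atg4b, Wipi2; 18.4% of all genes) and lower in all 3 were 3 (Tecpr1, Ulk2, Stx17; 13.4% of all genes). Vmp1 had the highest change, from 71.6, 78.7 and 83.5 normalised CPM to 409, 449 and 532 in KO1, from 74.3, 77.4 and 87.8 to 232, 277 and 320 in KO2, and from 53.3, 63.7 and 72.6 to 205, 235 and 285 in KI. Every 24 h sample lay above every 0 h sample, and the log2 change was 2.57 ± 0.27, 1.79 ± 0.08 and 1.92 ± 0.09 (SE; largest edgeR adjusted p 3.00e-07), more than the 24 h shift of -1.03, -0.46 and -0.88 between scalings. Mir21a, a microRNA gene on the same strand, covers 2.38% of the exon bases of Vmp1, and its part in the Vmp1 counts was not tested. Vamp8 rose by 1.69 ± 0.20, 1.26 ± 0.12 and 0.93 ± 0.11 (largest edgeR adjusted p 2.08e-06), with KO1 levels of 61.5, 66.2 and 71.0 and then 170, 212 and 260. Tecpr1 stayed below its resting level in all 3 cohorts, at 11.9, 23.3 and 26.3 in KO1 against 35.5, 38.2 and 47.7, with changes of -0.98 ± 0.29, -1.50 ± 0.12 and -0.93 ± 0.12 (largest 0.0108). Smaller values were those of Atg4b (0.93, 0.38 and 0.54) and Wipi2 (0.78, 0.42 and 0.59), whose KO2 levels overlapped with 0 h. In KO1 the Wipi2 call was lost without S33 (adjusted p 0.104) and without S34 (0.168), and in KO2 the Atg3 call, a change of 0.27, was lost with DESeq2 (adjusted p 0.0594) and without the filter on low counts (0.0617). On library totals alone 6 of the 11, 7 of the 12 and 6 of the 15 members called higher stayed above 0. Removing 1 culture from KO1 left 10 to 17 calls. Marker sums moved as well from 0 h to 24 h in WT cells. In KI those of macrophages went from 62280 to 70853 (median 65098) down to 23964 to 29663 (median 26482). The median of Lyz2, which is on that list, went from 53185 to 12817, so the fall of the sum was carried by Lyz2. In KI the sums of monocytes went from 102 to 124 down to 17.7 to 29.6 and those of dendritic cells from 4.81 to 7.35 up to 83.2 to 215. In KO1 the dendritic cell markers went from 21.6 to 32.04 up to 89.4 to 125, and in KO2 from 3.38 to 6.297 up to 10.8 to 15.2. The macrophage sums did not fall in KO1, with a median of 24165 at 0 h and 26575 at 24 h. In KO2 these medians were 40244 and 31278. Monocyte sums were 80.7 to 192 and then 71.1 to 279 in KO1. In KO2 they rose, from 3.60 to 6.16 up to 7.79 to 15.1. Their part in the members' changes was not tested.

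With TMM scaling, Tecpr1, Ulk2 and Stx17 were lower, and Vmp1, Atg3 and Atg4d higher, at both 6 h and 24 h in every cohort. On library totals alone none of these rises kept its sign throughout. At 6 h the shift exceeded the Vmp1 rise in every cohort and the Atg4d rise in KO1 and KI. At 24 h the shifts of -0.46 and -0.88 exceeded the Atg3 rises of 0.27 in KO2 and 0.85 in KI. Promoters are where a shared sequence of such genes would be looked for. Those of the largest sustained fall and rise with TMM scaling, Tecpr1 and Vmp1, and of Atg3, which holds motifs described below, are printed. Each runs 5′ to 3′ on the gene's strand up to its start in the GENCODE annotation, cut from a RefSeq window on build GRCm38.p6. Tecpr1 is chr5:144223616-144223865 (minus), Vmp1 chr11:86683837-86684086 (minus, 1 of its 3 windows) and Atg3 chr16:45158579-45158784 (plus). Capitals mark motif matches, in Atg3 an E-box and, nearer the start, a CLEAR match.
Tecpr1: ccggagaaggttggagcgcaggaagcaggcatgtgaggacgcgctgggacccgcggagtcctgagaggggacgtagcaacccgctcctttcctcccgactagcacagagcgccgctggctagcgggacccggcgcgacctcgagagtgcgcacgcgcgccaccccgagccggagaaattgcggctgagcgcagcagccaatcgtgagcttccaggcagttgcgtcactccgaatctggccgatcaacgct
Vmp1: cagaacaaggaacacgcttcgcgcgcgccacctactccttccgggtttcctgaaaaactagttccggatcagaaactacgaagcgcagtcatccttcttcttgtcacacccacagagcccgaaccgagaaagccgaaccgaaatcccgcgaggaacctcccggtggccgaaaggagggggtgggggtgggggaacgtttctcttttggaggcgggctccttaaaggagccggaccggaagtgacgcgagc
Atg3: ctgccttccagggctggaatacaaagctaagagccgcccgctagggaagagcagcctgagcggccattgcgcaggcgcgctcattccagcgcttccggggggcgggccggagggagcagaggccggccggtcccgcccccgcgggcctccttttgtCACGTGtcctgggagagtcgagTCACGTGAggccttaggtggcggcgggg
On both strands of windows from 250 bases before to 50 after each start, the motifs reported are CLEAR (TCACGTGA, bound by TFEB and TFE3), the E-box (CACGTG, contained in CLEAR), ISRE (GAAA, any 2 bases, GAAA, the interferon-stimulated response element) and kappa B (GGGA, any base, TTTCC). Windows exist for 29 of the 34 genes. CLEAR lay in 1 of the 29 (Atg3) and in 0.974% of all 32851 windows, and the E-box in 3 (Atg3, Atg5, Atg7) and 7.15%. The CLEAR match of Atg3 lies 72 to 65 bases before the RefSeq start of its window. That RefSeq start is 44 bases downstream of the GENCODE start at which the printed Atg3 sequence ends. ISRE and kappa B lay in none of the 29, and in 3.44% and 0.411% of all. The only window of Atg7, chr6:114670846-114671145 (plus), lies inside the gene, whose GENCODE start is at 114643097. Its E-box is thus not at the GENCODE start. The E-box genes moved in both directions at 6 h, as Atg3 rose and Atg5 and Atg7 fell. A match is a run of letters, not evidence of binding.

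**Figure D3:**
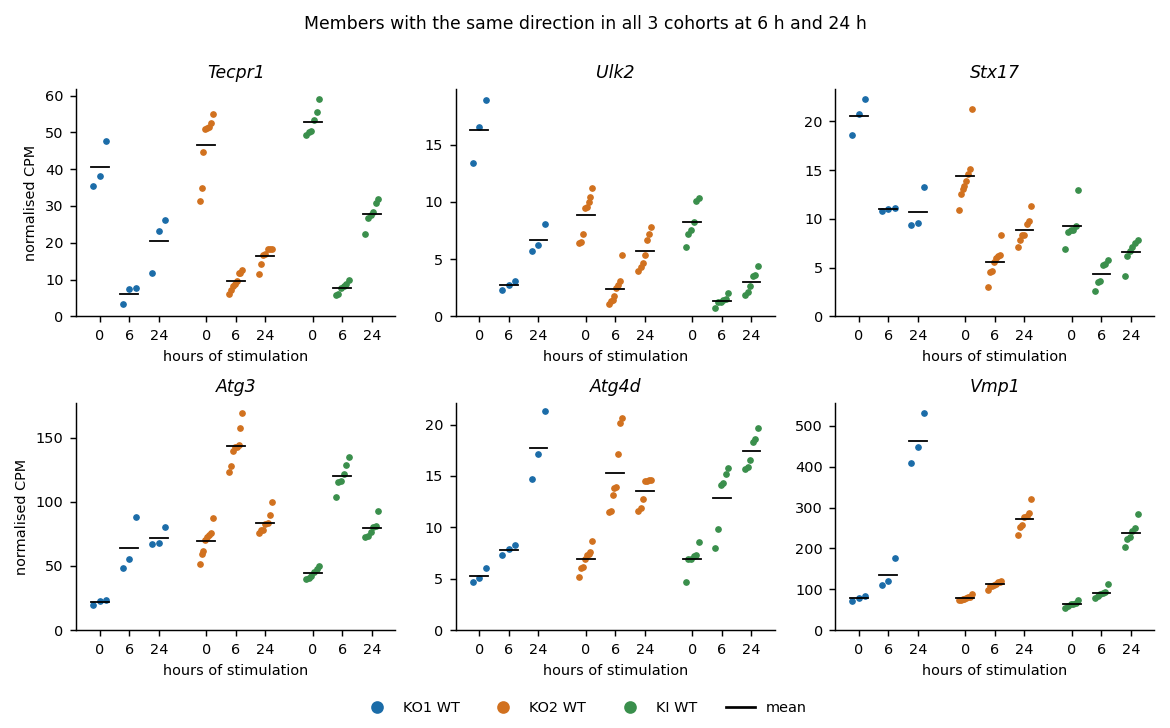
Normalised CPM (linear axis from 0) in WT samples at 0, 6 and 24 h for the 6 genes that, with TMM scaling, changed the same way at both times in all 3 cohorts. Points are cultures in KO1 and libraries in KO2 and KI, and black lines are means. Vmp1 climbs at each time, while Tecpr1 and Ulk2 drop at 6 h and regain part of their level at 24 h.

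In the mutant macrophages most members that changed at 6 h were lower too. At 6 h over 0 h, 22 members passed in KO1 KO cells (18 lower; 55.3% of all genes passed, 30.4% lower), 29 in KO2 KO cells (21 lower; 74.3 and 40.5%) and 28 in F121A cells (18 lower; 74.5 and 37.9%). At 24 h over 0 h, 17 passed in KO1 KO cells (10 higher; 38.5% of all genes passed), 22 in KO2 KO cells (10 higher; 58.3%) and 26 in F121A cells (15 higher; 66.3%). The difference between these counts and those of WT was not tested. The test of each gene's change between genotypes over time is given below.

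Neighbouring genes of the pathway, on lists that hold none of the 34, changed in both directions at 6 h. Of the 8 genes of class III PI3-kinase complexes, 4, 5 and 5 fell in WT cells of KO1, KO2 and KI and 0, 2 and 2 rose. Pik3c3, the catalytic subunit VPS34, was lower in all 3, at -0.84 in KO2 and -0.97 in KI, and Atg14, which directs Beclin 1 to the autophagosome, at -1.46, -0.79 and -0.85. Cargo receptors passed in 9, 10 and 11 of 11 genes, 3, 4 and 5 of them higher. Tax1bp1, a receptor for ubiquitinated cargo, rose by 2.10, 2.93 and 3.12, and Bnip3, a mitophagy receptor, by 3.82, 3.61 and 3.78, whereas Calcoco1 stood at -3.36, -2.74 and -2.21. Tfeb, which encodes the transcription factor of lysosome and autophagy genes, was at -4.91, -2.55 and -3.59. Of the 10 HOPS and lysosome fusion genes 5, 5 and 4 fell and 1, 2 and 2 rose. In the same comparisons 56.7, 70.8 and 73.5% of all tested genes passed, 31.1, 38.3 and 36.8% lower and 25.7, 32.5 and 36.7% higher. Whether any list departed from these shares was not tested.

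Loss of Beclin 1 in KO1 came with no member past the threshold. At 0, 6 and 24 h, 0 of 34 passed in edgeR's test, where 0.0219, 0.0219 and 0.0073% of all genes did, and DESeq2 called 0 at each time. At an unadjusted p under 0.05 there were 3, 3 and 2 members. The 34 log2 differences between KO and WT ran from -0.43 to 0.61 at 0 h, from -0.50 to 0.60 at 6 h and from -0.76 to 0.43 at 24 h. Vamp8 at 0 h was at 61.5, 66.2 and 71.0 normalised CPM in WT and at 90.2, 95.4 and 104 in KO, without overlap, a difference of 0.55 ± 0.20 (SE) with an edgeR adjusted p of 0.640. The neutrophil markers summed at 0 h to 145 to 167 in WT and 239 to 670 in KO, and their part was not tested.

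In KO2, 0 members passed at 0 h in edgeR's test (8.28% of all genes), 3 at 6 h (15.4%) and 2 at 24 h (11.3%), and 4, 11 and 5 had an unadjusted p under 0.05. DESeq2 called 1 at 0 h, Map1lc3b. At 6 h the SNARE Snap29 was lower in KO, with a lowest, median and highest level of 16.6, 19.7 and 25.7 normalised CPM against 17.9, 28.6 and 34.4 in WT. All 8 KO libraries lay below the WT median although the ranges overlapped, and the log2 difference was -0.45 ± 0.12 (SE, edgeR adjusted p 0.00605). Vmp1 was higher, at 112, 135 and 143 against 99.0, 112 and 120, by 0.23 ± 0.07 (edgeR adjusted p 0.0255), with 8 of 8 KO libraries above the WT median. Gabarapl1 was higher by 0.39 ± 0.14 (edgeR adjusted p 0.0448), at 15.7, 21.4 and 41.9 against 13.9, 18.5 and 21.04, in 7 of 8 libraries. Each of these 3 calls was lost under some alternative: without the filter on low counts Snap29 had an adjusted p of 0.0900 and Vmp1 of 0.128, and with only the compared groups in the fit Gabarapl1 had 0.124 and Vmp1 0.0981. At the same time the macrophage markers summed to 29264 to 39455 (median 32253) in WT and 19685 to 27980.2 (median 22901) in KO. The list holds Lyz2, the gene at which LysM-Cre sits, whose median at 6 h was 19063 in WT and 5882 in KO (26982 to 39613 against 8989 to 14136 at 0 h). The lower macrophage sum in KO was thus carried by Lyz2. Dendritic cell markers summed to 31.5 to 42.6 in WT and 44.3 to 74.4 in KO.

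At 24 h in KO2 the fusion genes Vamp8 and Plekhm1 differed, in opposite directions. Vamp8 had a lowest, median and highest level of 117, 135 and 160 in KO and 152, 191 and 232 in WT, and the log2 difference was -0.49 ± 0.12 (SE, edgeR adjusted p 0.00205). For Plekhm1 the levels were 25.7, 30.8 and 35.6 in KO and 18.3, 20.5 and 28.2 in WT, a difference of 0.49 ± 0.13 (edgeR adjusted p 0.00413). In both genes 8 of 8 KO libraries lay on the same side of the WT median and the extremes overlapped. Neutrophil markers summed to 60.6 to 68.9 in WT and 77.4 to 116 in KO. Of these 10 markers 2 reached a median of 1 CPM in each genotype. Elane, a defining neutrophil precursor gene, Mpo and Retnlg were at 0 in both genotypes. Monocyte markers summed to 7.79 to 15.1 in WT and 21.1 to 27.02 in KO. The part of these lists and of sex in the differences was not tested.

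The F121A cells differed from WT in 0 members at 0 h in edgeR's test (2.94% of all genes; 6 at an unadjusted p under 0.05, and 0 in DESeq2), in 4 at 6 h (11.5%) and in 1 at 24 h (7.2%). Atg3 at 6 h showed the clearest separation, with 151, 179 and 188 normalised CPM in F121A and 103, 119 and 135 in WT. All 6 mutant libraries lay above all 6 WT libraries, and the log2 difference was 0.55 ± 0.08 (SE, edgeR adjusted p 6.83e-06). Atg4c, a protease of the Atg8 proteins, was lower, at 2.35, 3.21 and 5.72 against 4.75, 5.97 and 10.3, by -0.83 ± 0.20 (edgeR adjusted p 0.00400). Gabarapl1 was also lower, at 16.97, 23.2 and 26.2 against 24.1, 26.8 and 35.9, by -0.41 ± 0.12 (edgeR adjusted p 0.0158). For both of these 6 of 6 mutant libraries lay below the WT median. Leaving out the WT 6 h library with conflicting labels gave Gabarapl1 an adjusted p of 0.0590. Atg9a was higher in 5 of 6 libraries, by 0.48 ± 0.14 (edgeR adjusted p 0.0189), at 20.1, 30.6 and 36.4 against 15.5, 20.1 and 28.1. At 24 h Atg12, the ubiquitin-like protein joined to ATG5, was higher in 6 of 6 libraries by 0.36 ± 0.11 (edgeR adjusted p 0.0367), at 71.7, 94.0 and 109 against 58.6, 69.6 and 95.7, and without the filter on low counts its adjusted p was 0.0927. At 6 h the neutrophil markers summed to 67.0 to 80.6 in WT and 95.7 to 122 in F121A, and the stimulated macrophage genes to 47714 to 55191 and 37000.5 to 43526. Their part was not tested.

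**Figure D4:**
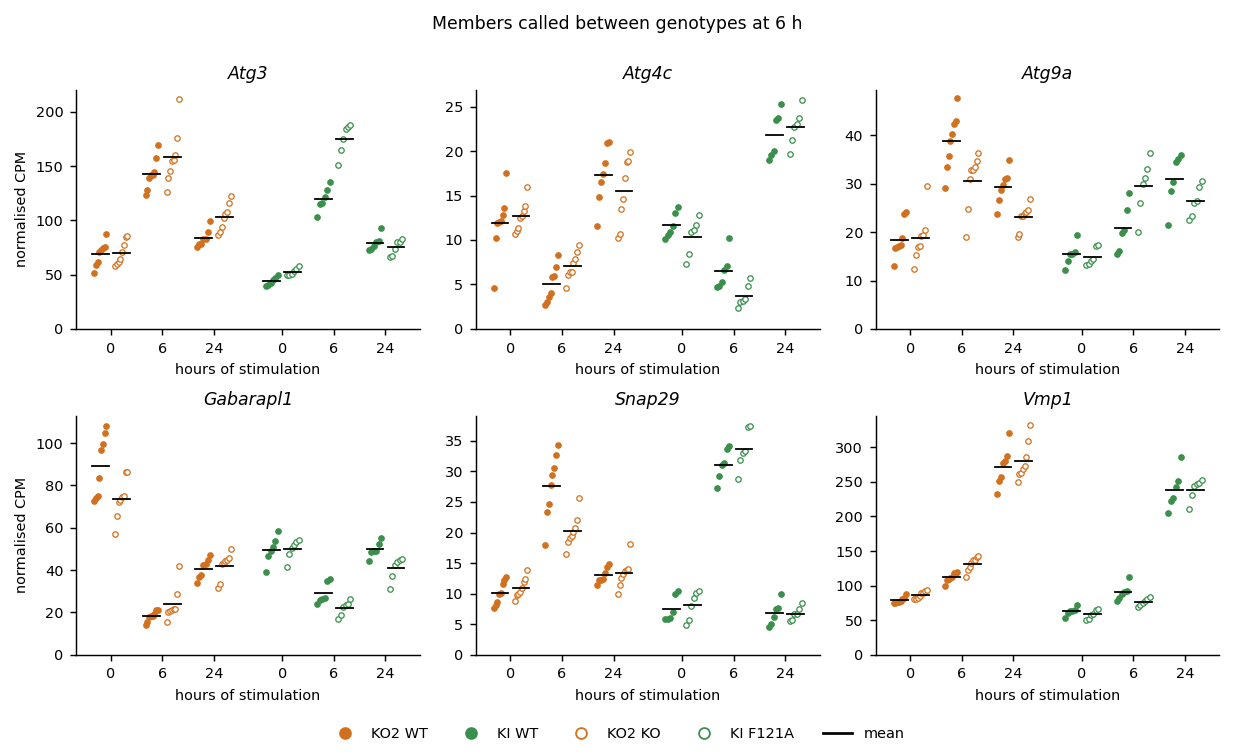
Normalised CPM (linear axis from 0) at 0, 6 and 24 h in KO2 (orange) and KI (green), for the 6 members that passed the test between genotypes at 6 h in either cohort. Filled points are WT libraries, open points KO or F121A libraries, and black lines are means. For Atg3 in KI at 6 h every open point, 151 to 188, lies above every filled one, 103 to 135.

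Several of these differences depended on time within the cohort. A test of whether the genotype difference changed over the 3 times called 0 members in KO1 (0.0% of all genes; 2 at an unadjusted p under 0.05, and 0 in DESeq2), 2 in KO2 (11.9%) and 4 in KI (8.29%). In KO2 the Gabarapl1 difference was 0.67 above its 0 h value at 6 h and 0.34 above it at 24 h (edgeR adjusted p 0.0237), and the Snap29 difference was -0.56 and -0.09 relative to 0 h (0.0396). The Snap29 call was lost without the filter on low counts (adjusted p 0.295), with the replicate block (0.0560) and with libraries summed by number (0.219). In KI the values were 0.29 and -0.34 for Atg3 (edgeR adjusted p 0.00128), -0.68 and 0.20 for Atg4c (0.0457), 0.54 and -0.17 for Atg9a (0.0354) and 0.31 and 0.68 for Atg12 (0.0117). The Atg4c call was lost with the replicate block (adjusted p 0.0654) and with summed libraries (0.0621). The log2 difference of F121A from WT in Atg3 was thus 0.26 at 0 h, where it did not pass, 0.55 at 6 h and -0.08 at 24 h, where it did not pass either.

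Loss of Beclin 1 and the F121A mutation were compared by the difference of their effects, KO2 minus KI, in a fit of both tables. At 0 h 1 member differed (Atg12; 3.87% of all genes), at 6 h 6 differed (12.2%) and at 24 h 0 (7.1%; edgeR, with 5 at an unadjusted p under 0.05 and 1 in DESeq2). At 6 h Atg4c gave the largest difference, 1.34 ± 0.31 (SE, edgeR adjusted p 8.34e-04), with a genotype effect of 0.48 in KO2, which did not pass alone, and -0.83 in KI. Gabarapl1 differed by 0.83 ± 0.19 (edgeR adjusted p 8.19e-04), since it was higher than WT in KO2 and lower in KI. Vmp1 differed by 0.51 ± 0.11 (edgeR adjusted p 5.87e-04), with effects of 0.23 and -0.25, the second of which did not pass alone. Wdr45 differed by 0.85 ± 0.28 (0.0329), Atg9a by -0.80 ± 0.20 (0.00213) and Map1lc3a by -0.78 ± 0.24 (0.0208). Without the filter on low counts Wdr45 had an adjusted p of 0.0946 and Map1lc3a of 0.0502. At 0 h the Atg12 difference was 0.56 ± 0.15 (edgeR adjusted p 0.0144), between effects of 0.24 in KO2 and -0.32 in KI that did not pass alone, and without the filter its adjusted p was 0.0888. The cohorts also differ in their controls and, in KO2, in sex between genotypes, which cannot be told apart from the kind of mutation, and Wdr45 lies on the X chromosome.

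**Figure D5:**
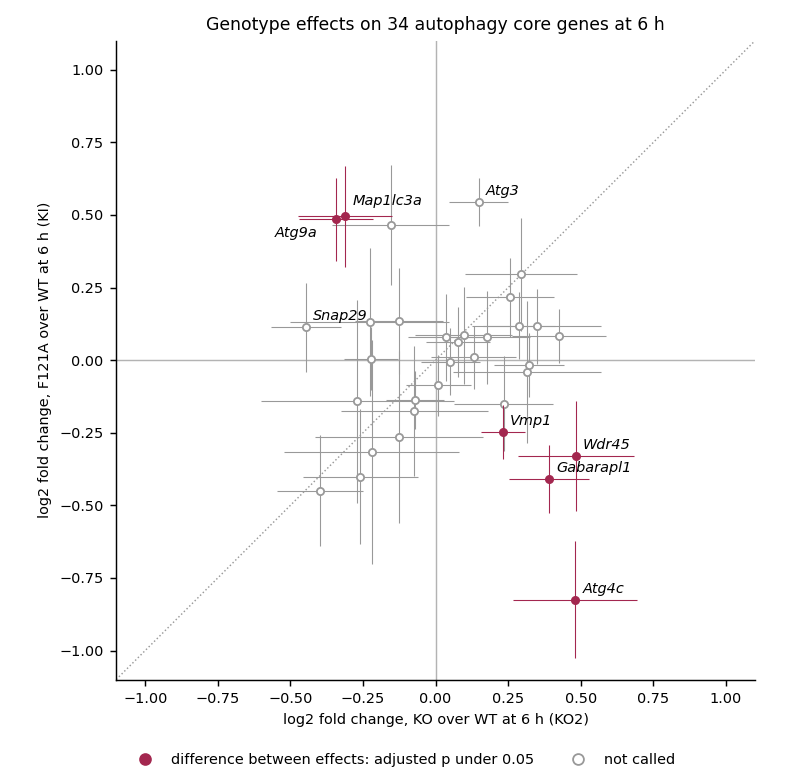
Genotype effect at 6 h (log2 of mutant over WT) of each member in KO2 (horizontal) and KI (vertical), with standard errors. The dotted line marks equal effects, and red points are the 6 members whose effects differed. Among them is Atg4c at 0.48, which did not pass alone, and -0.83.

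Pathway genes outside the 34 differed by genotype too, Becn1 itself aside. In KO2 at 6 h, where 15.4% of all genes passed, 5 of 11 cargo receptors did, 3 higher and 2 lower, among them Sqstm1 (p62, an autophagy substrate as well as a receptor) at 0.75 (edgeR adjusted p 1.20e-04), Calcoco1 at 0.90 and Bnip3 at -0.51. Of the other lists 2 of 10 HOPS and fusion genes passed there, 0 of 7 further initiation genes and 0 of 12 upstream kinases and transcription factors. At 24 h 3 cargo receptors passed (11.3% of all genes), all higher, with Optn, a mitophagy and xenophagy receptor, at 0.95 and Sqstm1 at 0.64. In KI at 6 h 2 of 11 cargo receptors passed, near the 11.5% of all genes, both higher, Optn at 0.75 and Tax1bp1 at 0.64, and Tbc1d14, a regulator of membrane supply, was higher by 0.77 (edgeR adjusted p 1.66e-07), 1 of 3 called among the 7 further initiation genes. The class III complexes, the HOPS list and the upstream list had 0 of 8, 0 of 10 and 0 of 12 called. Sh3glb1, whose product binds Beclin 1 through UVRAG, was higher in F121A at 0 h by 0.46 and at 6 h by 0.32. In KO1 no gene of these lists other than Becn1 passed at any time.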

How the data were processed

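RNA from 137 macrophage libraries was made into cDNA with oligo-dT priming (Smart-Seq2) and sequenced as read pairs without strand, per the labels' protocols. The authors deposited raw counts per gene, which were made with TopHat and HTSeq on mm10, per the submitters' processing notes; versions and annotation are not given in the sources used here. The 3 repeats of a KO1 culture were summed. Each cohort was fitted with edgeR 4.0.16 (R 4.3.3; filterByExpr, TMM scaling, quasi-likelihood test, 6 group means), Benjamini-Hochberg adjustment ran over all tested genes, and an adjusted p under 0.05 counts as a call. For the difference between the KO2 and KI effects both tables were fitted together. Standard errors were derived from log2 fold changes and F values. Alternatives used DESeq2 1.42.0, limma 3.58.1 (voom), other filters, blocks and samples. The script was tested on simulated data. Gene lengths and overlaps are from GENCODE vM21, which holds 84.0% of the symbols, and promoters from RefSeq. Members, lists and named genes were chosen with earlier results of these data known. Named genes are the 6 lowest and 6 highest by mean change among those called in all 3 cohorts, and each member called between genotypes. The per-sample values of the other Atg8 genes and of Vamp8 in KO1 at 0 h were chosen after their values were seen. A further promoter motif is not reported here.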

Additional observations from a re-analysis of the deposited data

Results flagged for a closer look

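In 21 of 408 sets of 6 to 8 libraries of one gene, cohort, genotype and time, 1 library lay apart from the others by more than Dixon's 95% limit, a share near the 1 in 20 that chance gives. Values are normalised CPM. Library 5 of F121A at 0 h, whose log CPM correlated least with its group over all genes (0.948), stood apart in 3 members: Atg16l1 was at 42.3 (others 17.5 to 23.7), Wdr45 at 8.26 (others 14.9 to 16.6) and Zfyve1 at 10.7 (others 15.2 to 17.3). In the other KI groups Zfyve1 was at 21.7 in WT 0 h library 1 (others 13.6 to 16.5), Rb1cc1 at 16.9 in WT 0 h library 4 (others 10.6 to 12.9), Atg7 at 7.10 in WT 6 h library 5 (others 3.86 to 5.04) and Map1lc3a at 5.99 in F121A 24 h library 3 (others 11.8 to 14.7).

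In KO2 WT cells 0 h library 8 was high in Atg16l2 (15.4, others 10.2 to 12.1) and Stx17 (21.2, others 10.9 to 15.1), and 6 h library 5 in Atg2b (4.40, others 0.667 to 2.33). The 24 h library 8 was low in Gabarap (261, others 357 to 393) and high in Epg5 (9.45, others 5.38 to 7.08), library 9 was low in Atg2a (12.4, others 17.2 to 18.8), and library 1 was high in Atg7 (32, others 22.8 to 25.6). In KO2 KO cells at 0 h Rb1cc1 was low in library 8 (7.51, others 12.8 to 17.5), and Atg4d was high in library 5 (12.3, others 4.97 to 8.31), Atg5 in library 4 (54.6, others 28.3 to 40.6) and Zfyve1 in library 6 (17.4, others 8.73 to 11.2). At 6 h library 9 was high in Atg7 (13.5, others 6.96 to 9.18) and Atg16l2 (10.3, others 1.94 to 4.91), and library 7 in Map1lc3b (82.3, others 51.1 to 60.0).

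Genotype differences that changed over time are listed as well, by their change from 0 h to 6 h on the log2 scale. These were 0.67 for Gabarapl1 and -0.56 for Snap29 in KO2, and 0.29 for Atg3, -0.68 for Atg4c, 0.54 for Atg9a and 0.31 for Atg12 in KI. Genotype effects that differed between the cohorts, as KO2 minus KI, were 0.56 for Atg12 at 0 h and, at 6 h, 1.34 for Atg4c, -0.80 for Atg9a, -0.78 for Map1lc3a, 0.83 for Gabarapl1, 0.51 for Vmp1 and 0.85 for Wdr45.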

How the results depend on the processing

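No call of a member changed sign under any alternative that was fitted. In WT time courses the number of members called stayed within 1.5 times in 38 of 39 alternatives for KO1, 18 of 18 for KO2 and 24 of 24 for KI. The exception was 25 at 24 h over 0 h in KO1, where 15 are reported, from single libraries in limma with a correlation within cultures. Leaving out 1 KO1 culture in turn gave 20 to 23 calls at 6 h, 10 (without S33) to 17 at 24 h, 23 to 26 between 6 h and 24 h, and 0 for genotype. Counts between genotypes are small and moved more. In KO2 they went from 0 to 1 at 0 h with DESeq2; from 3 at 6 h to 1 without the filter, 1 with only the compared groups, 5 with the replicate block and 0 with libraries summed by number; and from 2 to 4 at 24 h with only the compared groups. In KI they went from 0 to 1 at 0 h both without the filter and with the replicate block, and from 1 at 24 h to 0 without the filter, 0 with only the compared groups, 3 with summed libraries and 2 without F121A 0 h library 5, an alternative chosen after seeing the data. Genotype by time gave 2 in KO1 from single libraries, against 0, and 1 in KO2 both without the filter and with summed libraries, against 2. KO2 minus KI gave 0 at 0 h without the filter, against 1, and 1 at 24 h with DESeq2, against 0. The cause was not tested. Members above 0 on library totals alone, also chosen after seeing the data, numbered 3, 5 and 3 at 6 h, where 9, 10 and 12 are reported with TMM scaling, and 6, 7 and 6 at 24 h, where 21, 18 and 20 are. Labels do not say what equal replicate numbers share, and not every pair correlated above 0.1: correlations of same-numbered samples spanned -0.16 to 0.32 (KO1), -0.18 to 0.27 (KO2) and -0.14 to 0.16 (KI), and 13 of 18, 26 of 115 and 23 of 90 correlated best with their own number. In KO1 this is a hint from the data that a number is 1 source over time, and with the replicate block 1 member call was lost there, Atg4d at 6 h. The counts expected by chance were not computed for any cohort. Whether equal numbers in KO2 and KI share a source was not tested. With the block the KI calls at 6 h were 5 (4 reported) and those by time 3 (4 reported). No paired analysis was possible for KO1 genotypes or for KO2 minus KI because their groups share no number that could pair them. Members at a few CPM, among them Atg4a, and at 6 h Atg2b, Ulk1, Ulk2, Wdr45 and Atg4c in F121A, rest on few counts.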
